A study of Mus musculus with 6 samples.

Results

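Interferon-stimulated effector genes were followed by name through every cell class of the lumbar spinal cord, first for their level in each class and then for their difference between genotypes. Of 45 gene symbols, 43 had a row in the counts of 32285 genes, and Mx1 and Mx2 are not analysed here. All 43 were detected, with 55 (Zbp1) to 15089 (Adar) transcripts over the 6 libraries. The study sequenced single nuclei from frozen lumbar cords of C57BL/6 mice aged 110 days. Every animal carried SOD1G93A, a transgene for a mutant of human superoxide dismutase that causes motor neuron disease, so the baseline given here is that of diseased cord. No animal without the transgene is analysed here. The SOD1G93A/PHD1+/+ group had 3 libraries with intact Egln2, the gene of the oxygen-sensing prolyl hydroxylase PHD1, and the SOD1G93A/PHD1-/- group had 3 libraries from knockout animals. The labels speak of littermate pairs and do not say which part of Egln2 was deleted or whether the deletion was confined to any tissue. The series title names the interferon response of astrocytes, which is the question that the genotype comparison addresses.

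Interferons bind receptors on the cell surface, and kinases of the JAK family then activate transcription factors, which enter the nucleus and bind short interferon-stimulated response elements near their target genes. The genes switched on in this way encode the effectors: proteins that bind or cut viral RNA, membrane proteins that hold back virus particles, the ubiquitin-like modifier ISG15 with its enzymes, and nuclear DNA-binding proteins. In the nervous system microglia, astrocytes and blood vessel cells can all mount this response, and many of the genes also have a resting level without infection.

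The promoters are shown first because many of them hold a sequence feature that the choice of the genes did not use. RefSeq promoter windows of 300 bases (250 before and 50 after the gene start, GRCm38.p6) were at hand for 35 of the 43 genes. The core letters of the response element, GAAA, any 2 bases and GAAA again, searched on both strands, stood in the window of 16 of them (45.7%), against 3.99% of the windows of all 27025 genes. Of the 26 matches, 20 lay before the gene start, none farther than 156 bases. The letters TTC, any 3 bases and GAA, a further motif of interferon-responsive promoters that can overlap the first motif, stood in 9 of the 35 windows (25.7%) against 9.55% of all windows, and 5 windows held both. A match is a string of letters and not a measured binding site. Ifi44, Xaf1, Ifi35 and Lgals3bp, which fall outside the kinds of effector named above, held no match of the first motif. The following 30-base stretches show a match of that motif in genes of each named kind. They are written 5′ to 3′ on the strand of the gene, with the bases of a match in capitals.
Gbp3, chr3:142559989-142560018, plus strand: caggacacagTTTCAGTTTCTATTTCccag
Bst2, chr8:71537583-71537612, minus strand: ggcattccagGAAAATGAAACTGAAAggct
Ifit1, chr19:34640775-34640804, plus strand: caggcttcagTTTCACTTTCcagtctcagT
Oas1a, chr5:120907526-120907555, minus strand: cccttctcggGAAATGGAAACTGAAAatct
Eif2ak2, chr17:78882535-78882564, minus strand: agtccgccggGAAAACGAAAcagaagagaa
Slfn5, chr11:82951937-82951966, plus strand: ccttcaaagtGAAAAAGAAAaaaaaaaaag
Trim30a, chr7:104465210-104465239, minus strand: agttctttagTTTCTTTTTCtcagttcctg
Ifi207, chr1:173741831-173741860, minus strand: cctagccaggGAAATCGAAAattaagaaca
The last capital of the Ifit1 stretch begins a further match, and the Eif2ak2 match lies after the gene start. The whole 250 bases before the start are shown for Isg15, with 3 overlapping matches, and for Rsad2, with 1, because Rsad2 is the gene that the genotype comparison in astrocytes turns on.
Isg15, chr4:156200819-156201068, minus strand: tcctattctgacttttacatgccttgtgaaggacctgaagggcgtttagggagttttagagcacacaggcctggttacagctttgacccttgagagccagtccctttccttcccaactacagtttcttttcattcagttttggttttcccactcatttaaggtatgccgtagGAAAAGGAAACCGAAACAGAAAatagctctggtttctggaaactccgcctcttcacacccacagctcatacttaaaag
Rsad2, chr12:26456453-26456702, minus strand: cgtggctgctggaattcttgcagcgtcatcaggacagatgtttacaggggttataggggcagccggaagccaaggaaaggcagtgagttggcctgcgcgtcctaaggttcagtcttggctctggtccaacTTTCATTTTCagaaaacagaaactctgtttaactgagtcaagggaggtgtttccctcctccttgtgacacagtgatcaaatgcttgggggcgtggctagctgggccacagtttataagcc
Many of the genes also lie side by side in the genome: 8 stretches hold 2 or 3 of them each, such as Ifit1, Ifit2 and Ifit3 within 99.3 kb of chromosome 19 and Rsad2 with Cmpk2 within 37.1 kb of chromosome 12 (GENCODE, GRCm38).

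The libraries held 5387 to 9174 barcodes and 14120298 to 33794389 unique transcripts (unique molecular identifiers, UMIs). After filtering, 5209 to 9153 nuclei per library remained. Replicate 1 of both groups stood apart from the other 4 libraries: its nuclei had fewer UMIs (medians of 1363 and 1365, with 2289.5 to 2904 elsewhere), it used another barcode list, and Scrublet marked 0 doublets in it against 109 to 269. At most 14 barcodes were shared by any pair of libraries except for the replicate 1 pair, which shared 86. Levels that rest on replicate 1 are therefore also given for replicates 2 and 3. Egln2, as a check of the genotype labels, was 29.6, 18.8 and 16.5 CPM (counts scaled so that every library or class has the same total) over all nuclei of PHD1+/+ and 9.66, 9.03 and 10.1 in PHD1-/-. Values of 3 libraries are given throughout in the order of replicates 1, 2 and 3.

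Nuclei were clustered without the interferon genes, so that these genes did not define the classes, and class names stand for clusters that carried the markers of that cell type. There were 1495 astrocyte, 2908 microglia, 13515 oligodendrocyte, 413 endothelial, 8156 excitatory neuron and 5347 inhibitory neuron nuclei, besides smaller classes. All 8 astrocyte markers were detected in the astrocyte class, with Slc4a4, Aqp4 and Slc1a2 leading it. Clusters without a clear name held 2758 nuclei, of which 1509 came from PHD1+/+ replicate 1, and were left out of the class comparisons. In 5 of them, with 251, 225, 148, 142 and 89 nuclei, Gfap, an intermediate filament gene of astrocytes, was among the 10 leading genes, so the astrocyte class may lack part of the astrocytes of that library. A further 2719 neuron nuclei were left out because the transmitter markers of their clusters were neither clearly excitatory nor clearly inhibitory. Of these, 1050 came from PHD1+/+ replicate 1 and 839 from PHD1-/- replicate 1. A level is the UMIs of a gene or group of genes in CPM of all UMIs of its class in 1 library. Levels are compared between classes or libraries for the same gene or group and never between genes.

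Among the 13 classes with at least 10 nuclei in every library, endothelial cells had the highest mean summed level of these genes, and inhibitory and excitatory neurons the lowest. The 43 genes together reached 3656, 3318 and 3052 CPM in endothelial nuclei of PHD1+/+ replicates 1, 2 and 3 (mean 3342 ± 302, SD, n = 3). Of these classes microglia came next, with 1494, 1624 and 2042 CPM, below every endothelial library. Fibroblasts (1228 ± 141, n = 3) and mural cells, the pericytes and smooth muscle of vessels (1080 ± 285), came next, and the lowest microglia library lay above the highest library of both. Astrocytes reached 1075, 633 and 860 CPM, a range that overlapped those of mural cells and of ependymal cells (701 ± 214). Below them Schwann cells (462 ± 99.7), oligodendrocyte precursors (OPC, 416 ± 100), oligodendrocytes (363 ± 139), cholinergic neurons (361 ± 95.2) and newly formed oligodendrocytes (356 ± 140) overlapped each other. Inhibitory (257 ± 27.4) and excitatory neurons (248 ± 24.2) had the lowest means. Inhibitory neurons overlapped oligodendrocytes, and excitatory neurons of PHD1+/+ lay below the lowest PHD1+/+ oligodendrocyte library. In oligodendrocytes replicate 1 was high in both groups, at 524 CPM against 277 and 289 in PHD1+/+ and at 484 against 281 and 274 in PHD1-/-. The immune classes with fewer nuclei were too few to enter the tests. Border macrophages, with 3, 25 and 9 nuclei in the PHD1+/+ libraries, had 5491, 3280 and 4765 CPM. T and NK lymphocytes, with 5, 20 and 9 nuclei, had 2895, 2194 and 3735 CPM, and B lymphocytes, with 1, 16 and 13 nuclei, had 2829, 2077 and 3077, all above the microglia of PHD1+/+. Classes also differed in mitochondrial transcripts, with 6540 to 19023 CPM in PHD1+/+ endothelial sums and 2488 to 5260 in microglia. Astrocytes had 1834 to 4595 and excitatory neurons 955 to 2403. The part of such RNA from outside the nucleus in the class levels was not tested.

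**Figure D1:**
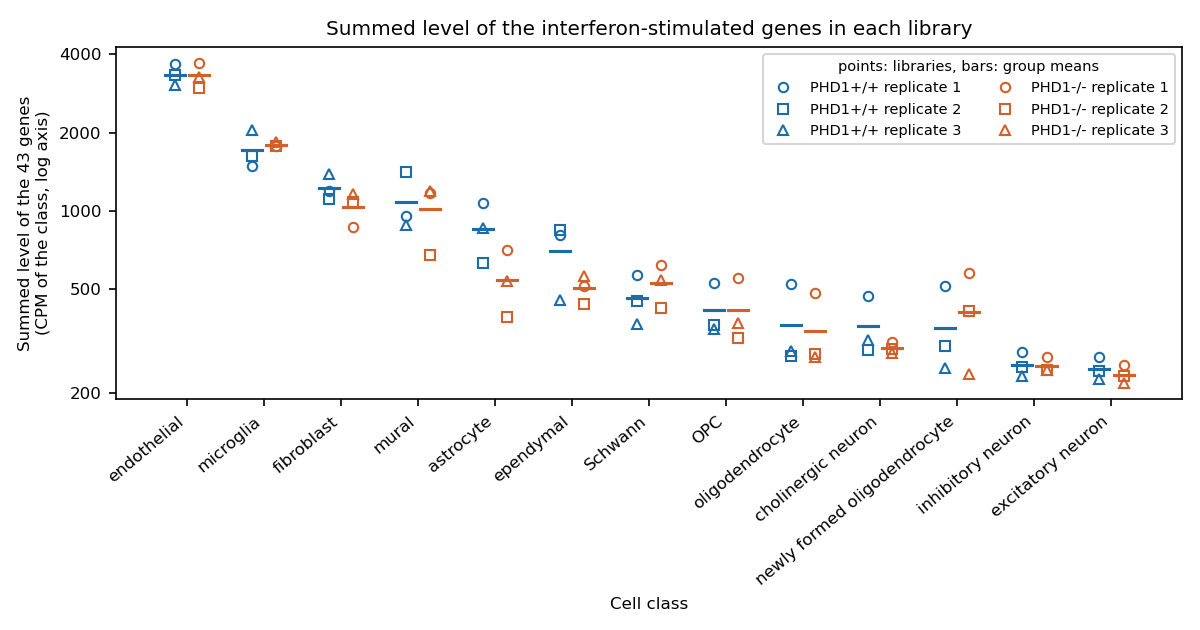
Summed level of the 43 genes (CPM of the class, log axis) in each library, by cell class. Points are libraries and bars are group means. Endothelial libraries lie above all libraries of the other classes drawn in both groups, excitatory and inhibitory neurons below 300, and in astrocytes the PHD1+/+ mean is 856 and the PHD1-/- mean 545 with overlapping libraries.

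Gene by gene, 24 of the 43 had their highest PHD1+/+ mean in endothelial cells and 11 in microglia, among 13 classes with at least 10 nuclei in every library. Mural cells, fibroblasts and Schwann cells were highest for 2 each, astrocytes for 1 (Rsad2, through few nuclei, as given below) and inhibitory neurons for 1 (Adar). For 14 genes every PHD1+/+ library of the highest class lay above every PHD1+/+ library of the class with the next mean. Those were 11 endothelial genes (Sp100, Slfn5, Bst2, Samd9l, Gbp7, Isg15, Oasl2, Sp110, Usp18, Gbp3 and Ifit1), the microglia genes Ifi207 and Tor3a, and the mural gene Ifi203. For the other 29 the leading classes overlapped. The comparison is with the class of the next mean only. For Oasl2 endothelial cells were the highest class in 2 of the 3 PHD1+/+ libraries. Endothelial counts of PHD1+/+ replicate 2 were small, with 1 UMI for Isg15 and 2 each for Ifit1, Gbp3, Usp18 and Sp110.

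**Figure D2:**
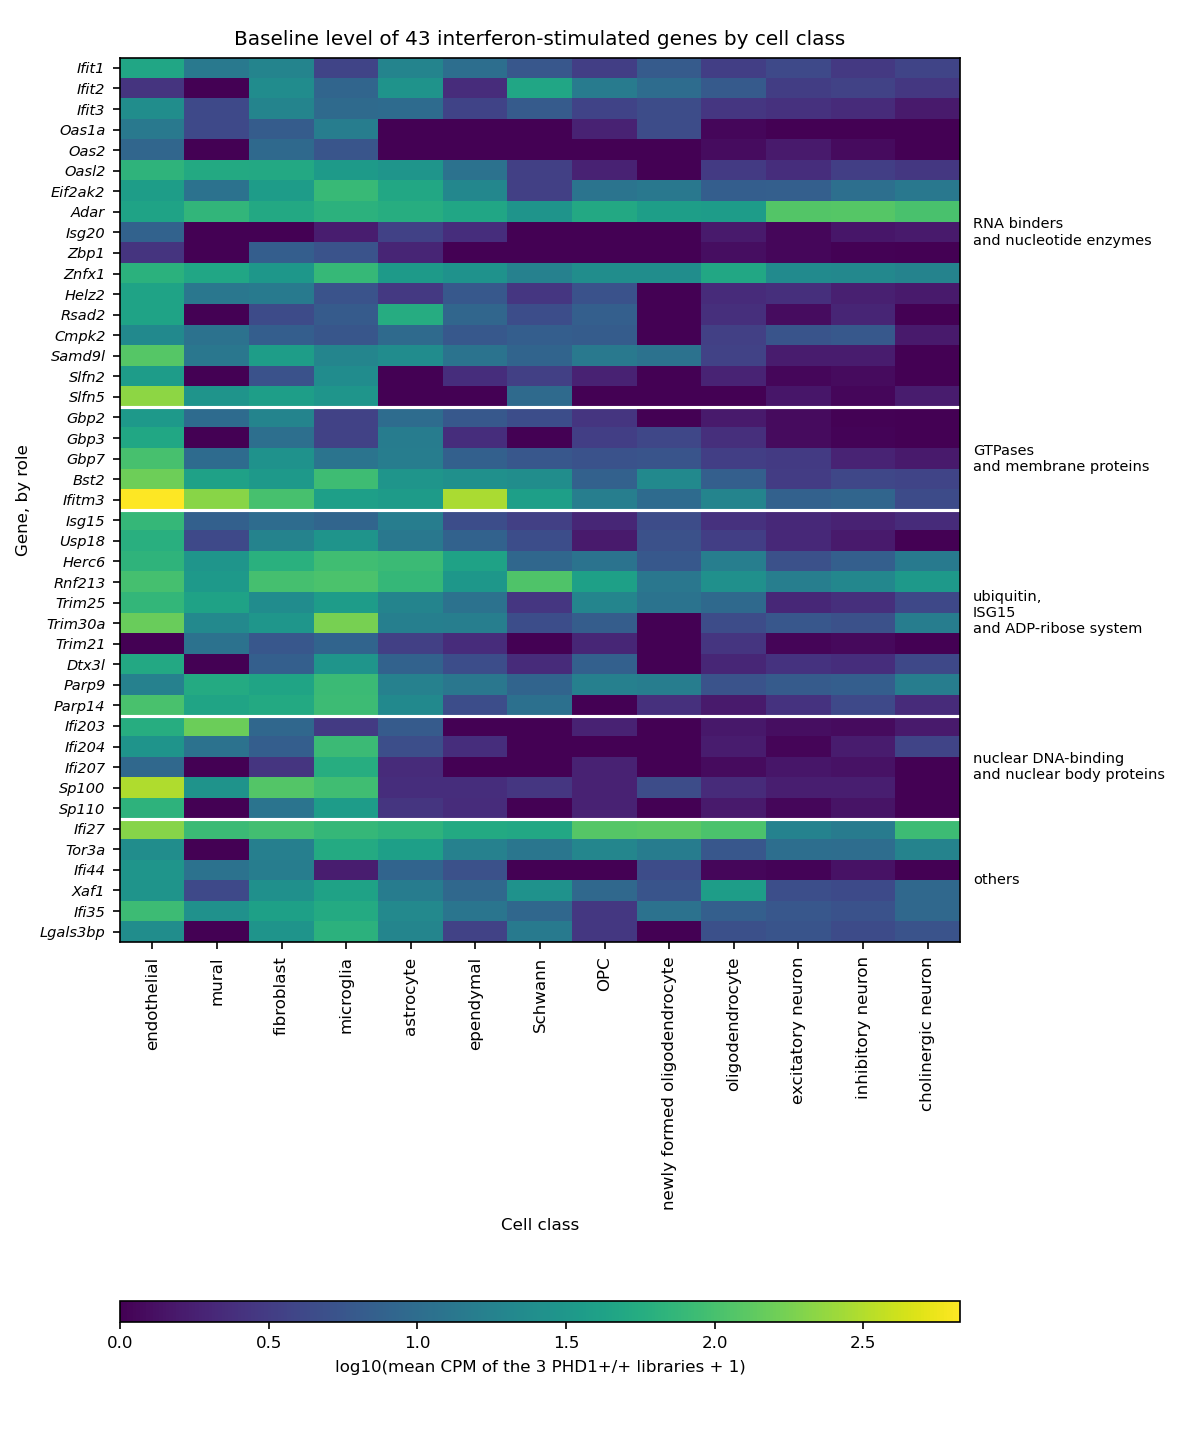
Mean level of each gene in each cell class over the 3 PHD1+/+ libraries, as log10(CPM + 1), with genes ordered by role. Colours are to be compared along a row, since levels are not compared between genes. The endothelial column is brightest for 24 genes, and the microglia column for 11.

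The membrane proteins and GTPases were endothelial in the main. Ifitm3, which blocks fusion of viruses with the cell membrane, had 1218, 216 and 569 CPM in endothelial cells of PHD1+/+ and 1144, 264 and 416 in those of PHD1-/-. Replicate 1 was the highest in both groups. The next class, ependymal cells that line the central canal, had 231, 484 and 155 CPM in PHD1+/+ and overlapped. Bst2 (tetherin), which ties budding virus particles to the cell surface, had 161, 168 and 142 CPM in PHD1+/+ endothelial cells and 87.9, 84.3 and 88.0 in PHD1+/+ microglia, 2 ranges that did not overlap. Astrocytes carried 22.4, 31.4 and 32.3 CPM of Bst2. Gbp7, a guanylate-binding GTPase that acts against microbes inside the cell, had 85.6, 120 and 90.5 CPM in PHD1+/+ endothelial cells, above the fibroblasts that followed (26.3 ± 20.5, n = 3). Its relative Gbp3 was also highest in endothelial cells (47.7 ± 17.2), with astrocytes second (14.2 ± 5.48), while Gbp2 (32.4 ± 28.2) overlapped its next class, fibroblasts.

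RNA-binding effectors split into genes found in every class and genes of vessels and immune cells. Adar, which converts adenosine to inosine in double-stranded RNA, was highest in neurons. It had 85.8, 138 and 131 CPM in inhibitory neurons of PHD1+/+ replicates 1, 2 and 3 and 79.3, 136 and 131 in excitatory neurons. These 2 classes overlapped fully, and microglia (63.7 ± 11.9, n = 3), astrocytes (56.0 ± 12.5) and oligodendrocytes (35.4 ± 7.68) had lower means. Znfx1, an RNA helicase-like sensor, was more even, with 51.9, 84.3 and 97.6 CPM in microglia, 48.7 ± 19.9 in oligodendrocytes, 33.9 ± 14.5 in astrocytes and 21.6 ± 0.671 in excitatory neurons. Eif2ak2 (PKR), the kinase that halts translation on double-stranded RNA, had 42.0, 91.8 and 103 CPM in PHD1+/+ microglia and 33.6, 54.6 and 55.8 in astrocytes. Oligodendrocytes carried far less of it, 6.08 ± 0.927 CPM. Slfn5, a Schlafen protein, had 111, 313 and 233 CPM in PHD1+/+ endothelial cells, against 37.6 ± 11.4 in fibroblasts, and was at 0 in all 3 PHD1+/+ oligodendrocyte sums. Rsad2 (viperin), which makes a nucleotide that stops viral RNA synthesis, had its highest mean in astrocytes, at 85.9, 16.4 and 64.6 CPM, and endothelial cells overlapped with 42.9 ± 53.9. In each of these astrocyte libraries 1 nucleus held most of the Rsad2 UMIs. Without that nucleus the level was 7.58, 5.48 and 17.9 CPM, so the lead of astrocytes rested on single nuclei. The oligoadenylate synthetase gene Oas1a was highest in microglia (14.6 ± 7.64) and had 0 UMIs in the astrocyte class of every library.

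Within the ubiquitin, ISG15 and ADP-ribose system the leading class differed by gene. Rnf213, a giant ubiquitin ligase, had 47.5, 138 and 143 CPM in PHD1+/+ Schwann cells, 59.9, 113 and 145 in microglia and 63.5, 68.2 and 93.9 in astrocytes, so that no class stood out. Herc6, the main ligase for ISG15 in mice, had 57.9, 87.5 and 122 CPM in PHD1+/+ microglia. In astrocytes it was nearly the same in each library, at 82.1, 84.6 and 82.2, and in oligodendrocytes it was 15.1 ± 2.20. Trim30a, a TRIM protein, had 136, 168 and 216 CPM in PHD1+/+ microglia, 106, 216 and 129 in endothelial cells and 15.5 ± 6.00 in astrocytes. The first 2 ranges overlapped, and astrocytes lay below both. Parp14, an ADP-ribosyltransferase, was high in both endothelial cells (102 ± 81.3) and microglia (85.1 ± 27.1), and its partner gene pair Parp9 and Dtx3l, neighbours on chromosome 16, led in microglia (83.3 ± 43.4) and in endothelial cells (50.0 ± 41.7). Isg15 itself had 161, 24.05 and 38.8 CPM in PHD1+/+ endothelial cells and 14.9, 5.46 and 23.5 in astrocytes. Replicate 1 made most of the endothelial mean, and the lowest endothelial library lay just above the highest astrocyte library. That endothelial library held 1 UMI of Isg15, and the 8 UMIs of that astrocyte library came from 1 nucleus.

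Transcripts of the nuclear proteins were found mainly in vessel and immune classes. As a group they reached 466 ± 200 CPM in PHD1+/+ endothelial cells and 268 ± 97.9 in microglia (SD, n = 3), and in the small immune classes 1255 ± 93.4 in T and NK lymphocytes, 1061 ± 32.5 in border macrophages and 640 ± 563 in B lymphocytes. Sp100, a scaffold of nuclear bodies, had 196, 481 and 246 CPM in PHD1+/+ endothelial cells, 117 ± 53.5 in fibroblasts and 55.9, 90.7 and 121 in microglia. In astrocytes it had 4.09 CPM in PHD1+/+ replicate 2 and 0 in the other 5 libraries. Ifi204 and Ifi207, DNA-binding proteins of the p200 family, had 47.9, 70.4 and 134 CPM and 27.97, 58.7 and 84.2 CPM in PHD1+/+ microglia. Ifi207 was above every PHD1+/+ endothelial library (mean 8.02 ± 13.9), while Ifi204 overlapped endothelial cells (28.4 ± 38.5). Their neighbour on chromosome 1, Ifi203, was instead highest in mural cells, at 96.4, 239 and 126 CPM. Mural marker transcripts were also present in the endothelial sums, at 313 to 4604 CPM in PHD1+/+ and 634 to 1663 in PHD1-/- libraries with all 6 markers detected, and their part in the endothelial levels was not tested.

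The remaining genes followed no common class. Ifi27, a small membrane protein of mitochondria and the nuclear envelope, had 272, 192 and 142 CPM in PHD1+/+ endothelial cells. In oligodendrocytes it depended on the library, with 227 and 220 CPM in replicate 1 of PHD1+/+ and PHD1-/- and 41.0 to 51.0 in the other 4 libraries. Over all nuclei Ifi27 showed the same split, at 105 and 85.0 CPM in the replicate 1 libraries and 15.6 to 19.6 in the others. Xaf1, a pro-apoptotic protein, had 34.1, 39.7 and 34.5 CPM in oligodendrocytes, a range within that of microglia (57.9, 18.1 and 47.8). Tor3a, a torsin ATPase of the endoplasmic reticulum, had 45.9, 64.0 and 47.8 CPM in PHD1+/+ microglia and 37.3, 38.2 and 38.2 in astrocytes, and oligodendrocytes carried 4.87 ± 1.24. Lgals3bp, a secreted glycoprotein, led in microglia (64.6 ± 31.8), and Ifi35 (85.3 ± 61.3) and Ifi44 (29.1 ± 38.0) had their highest means in endothelial cells with overlap. Of the genes not described so far, Helz2, Slfn2, Ifit3, Cmpk2, Isg20 and Trim25 also had their highest mean in endothelial cells, Oas2 and Zbp1 in fibroblasts, Ifit2 in Schwann cells and Trim21 in mural cells, each overlapping the next class.

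Genes with reads shared by an overlapping gene are less certain. By the GENCODE annotation 5 of the 43 (Herc6, Gbp7, Ifi203, Sp100 and Parp14) overlap another gene on the same strand and 16, among them Adar and Znfx1, overlap one on the opposite strand. The sources used here do not say whether the counting used introns or strand.

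Microglia, endothelial cells, astrocytes and excitatory neurons were each tested against oligodendrocytes, the largest class, with edgeR's quasi-likelihood test on UMIs summed per library and class in all 6 libraries, with the library as a covariate. A gene was called at a Benjamini-Hochberg adjusted p under 0.05 over the 11551 genes tested, of which 29 were interferon-stimulated. Cell classes differ in much of their RNA, so a large share of all genes was called, and the members' counts are to be read against that share. The library is the replicate in every test.

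Microglia were higher than oligodendrocytes for 25 of the 29 genes and lower for 1, while 55.1% of all genes were called (25.2% higher and 29.9% lower). The median log2 difference of the 29 was 2.91, against -0.06 for all genes. All 5 nuclear proteins were higher, from 2.14 (Ifi203) to 7.46 (Ifi207, SE 0.43), and so were all 7 tested genes of the ubiquitin, ISG15 and ADP-ribose system, led by Parp14 (7.11, SE 0.29). Bst2 (3.71, SE 0.29), Trim30a (5.74, SE 0.31) and Eif2ak2 (3.30, SE 0.18) were higher as well. The gene that was lower was Ifi27 (-0.70, SE 0.17), and Xaf1, Ifit1 and Ifit2 were not called. Ifitm3 (1.01, SE 0.40) lost its call without PHD1-/- replicate 3, at 0.91 (edgeR adjusted p = 0.0792), with nuclei of at least 1000 UMIs (0.125) and in the 3 PHD1+/+ libraries alone (0.253), and Znfx1 (0.46, SE 0.16) lost its call in the last of these (0.156).

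Endothelial cells were higher for 25 of the 29 and lower for 0, while 51.5% of all genes were called (23.7% higher and 27.7% lower). The median of the 29 was 3.70, against -0.15 for all genes. Sp100 stood at 8.06 (SE 0.33), Ifitm3 at 5.37 (SE 0.32), Samd9l, which restrains protein synthesis in infected cells, at 5.23 (SE 0.46), and Gbp7 at 4.77 (SE 0.41). Slfn5 was called as higher too, and its size is not given because 3 of the 6 oligodendrocyte sums had 0 UMIs. All 4 GTPases and membrane proteins, all 5 nuclear proteins and all 7 tested genes of the ubiquitin group were higher. Xaf1, Znfx1, Ifi27 and Ifit2 were not called. The endothelial call of Adar (0.59, SE 0.24) was lost without PHD1+/+ replicate 1 (edgeR adjusted p = 0.0946), PHD1+/+ replicate 3 (0.0509), PHD1-/- replicate 1 (0.330) and PHD1-/- replicate 2 (0.176), as well as with no filter (0.438), in replicates 2 and 3 (0.54) and in PHD1+/+ alone (0.856). Ifi207 (3.35, SE 1.40), with 2 endothelial UMIs, lost its call without PHD1+/+ replicate 2 (0.284) or PHD1-/- replicate 1 (0.215), with no filter (0.0631) and in replicates 2 and 3 (0.118). Ifi204 (3.70, SE 1.09) lost it without PHD1+/+ replicate 2 (edgeR adjusted p = 0.0642) and in PHD1+/+ alone (0.0564).

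Astrocytes were higher for 20 of the 29 and lower for 3, while 52.4% of all genes were called (27.5% higher and 24.9% lower). The median of the 29 was 1.70, against -0.04 for all genes. Parp14 (4.69, SE 0.45), Oasl2, an oligoadenylate synthetase-like protein (3.14, SE 0.45), Gbp3 (2.75, SE 0.46), Eif2ak2 (2.66, SE 0.21), Tor3a (2.54, SE 0.27) and Herc6 (2.24, SE 0.20) were higher. Of the 5 nuclear proteins only Ifi203 was called (3.76, SE 0.70), and Sp100, Sp110, Ifi204 and Ifi207, with 3 UMIs or fewer each in astrocytes, were not. Xaf1 (-2.22, SE 0.38), Ifi27 (-1.10, SE 0.20) and Znfx1 (-1.07, SE 0.22) were lower. Ifitm3 (1.13, SE 0.44) lost its call without PHD1+/+ replicate 2 (edgeR adjusted p = 0.201), PHD1+/+ replicate 3 (0.0574), PHD1-/- replicate 2 (0.0545) or PHD1-/- replicate 3 (0.0837), and in PHD1+/+ alone (0.132), and Bst2 (1.92, SE 0.41) fell to 1.33 without PHD1+/+ replicate 2.

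Excitatory neurons were higher for 4 of the 29 and lower for 13, while 75.4% of all genes were called (37.4% higher and 38.0% lower). The median of the 29 was -0.81, against -0.02 for all genes. The higher genes were Adar (1.68, SE 0.11), Parp14 (1.95, SE 0.42), Tor3a (1.45, SE 0.20) and Parp9 (0.57, SE 0.25). Among the lower ones were Xaf1 (-3.95, SE 0.25), Trim25, a ubiquitin ligase of RNA sensing (-3.65, SE 0.33), Ifi27 (-2.90, SE 0.16) and Samd9l (-2.63, SE 0.54). None of the 5 nuclear proteins was called, each with a level under 3 CPM in every library of both classes.

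**Figure D3:**
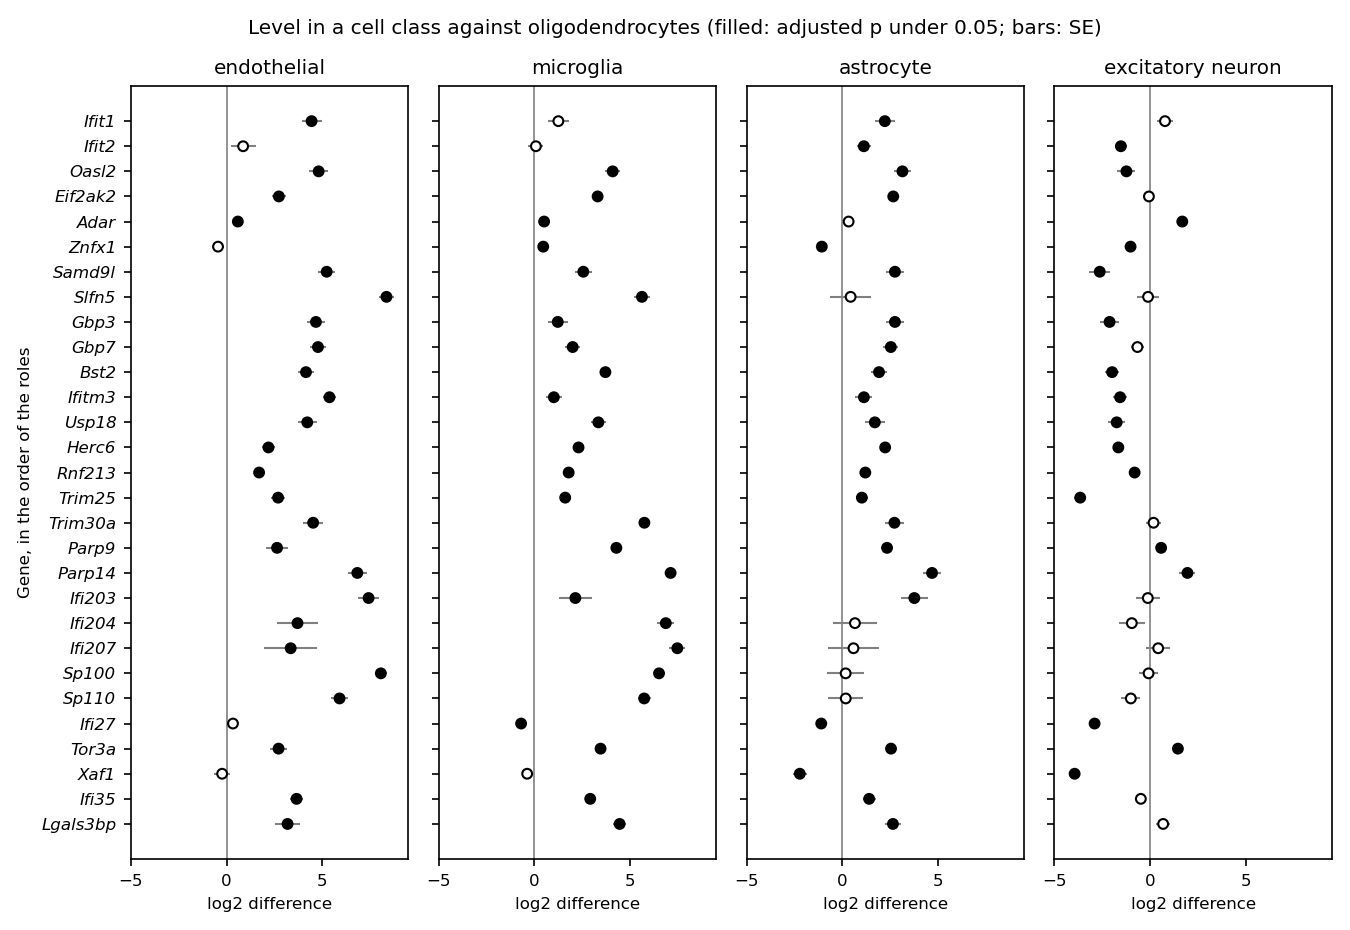
Log2 difference of each of the 29 tested genes between a class and oligodendrocytes over the 6 libraries, with bars of 1 SE, filled where the edgeR adjusted p was under 0.05. In endothelial cells and microglia 25 genes each lie to the right of 0 and are filled, in astrocytes 20, and in excitatory neurons 4.

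With DESeq2's size factors (RLE) in place of TMM, the median of all genes moved from -0.04 to 0.12 in astrocytes, from -0.15 to 0.09 in endothelial cells and from -0.02 to 0.08 in excitatory neurons. The split of all called genes changed with it, from 3178 higher and 2874 lower to 3758 and 2168 in astrocytes, and from 2739 and 3204 to 3280 and 2482 in endothelial cells. The interferon-stimulated genes then counted 21 higher in astrocytes, 26 in endothelial cells, 26 in microglia and 6 in excitatory neurons. In replicates 2 and 3 alone 20 of 30 tested genes were higher in astrocytes, 24 in endothelial cells, 27 in microglia and 6 in excitatory neurons. The shares of all genes called in that fit are not given here. Nor are those for microglia and excitatory neurons with RLE, so these counts are not set against a background.

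The other genes of the pathway were read from a list of 36 symbols, of which 34 had a row and 25 were tested here. Microglia were higher for 21 and lower for 1, endothelial cells higher for 16 and lower for 2, astrocytes higher for 13 and lower for 1, and excitatory neurons higher for 3 and lower for 14. Of all genes, 25.2% were called higher and 29.9% lower in microglia, and 23.7% and 27.7% in endothelial cells. The shares were 27.5% and 24.9% in astrocytes and 37.4% and 38.0% in excitatory neurons. The receptor chain Ifnar2 had 168, 264 and 243 CPM in PHD1+/+ microglia, 176, 120 and 336 in endothelial cells and 26.1, 49.1 and 32.3 in astrocytes. It was higher than in oligodendrocytes in microglia (2.63, SE 0.15) and endothelial cells (2.67, SE 0.21) and was not called in astrocytes (0.32, SE 0.20). Of the kinases downstream, Jak1 was higher in astrocytes (1.43, SE 0.14) and microglia (1.53, SE 0.13), and Jak2 was lower in both (-1.76, SE 0.14, and -1.44, SE 0.13). The antigen-presentation genes B2m and H2-D1 were higher in microglia (3.22, SE 0.21, and 2.87, SE 0.17) and in endothelial cells (3.56, SE 0.23, and 3.12, SE 0.20), and were not called in astrocytes (0.50, SE 0.25, and 0.04, SE 0.22).

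For single nuclei, every nucleus of at least 1000 UMIs was thinned to 1000 UMIs and counted if it carried at least 2 of the genes. In endothelial cells 82.1%, 81.3% and 66.7% of PHD1+/+ nuclei did so (exact 95% binomial intervals 66.5 to 92.5, 54.4 to 95.95 and 41.0 to 86.7, which cover counting error only). Microglia had 33.1%, 40.2% and 45.8% (24.98 to 42.0, 35.8 to 44.6 and 39.9 to 51.9), and astrocytes 16.9%, 9.15% and 8.96% (11.2 to 23.9, 6.07 to 13.1 and 4.71 to 15.1). Ependymal cells, with 20.9%, 19.4% and 5.38%, overlapped astrocytes and had a higher mean share (15.2% against 11.7%), although their mean summed level was the lower one. In oligodendrocytes the shares were 6.67%, 3.09% and 3.18%, and in excitatory neurons, the class taken as background, they were 3.14%, 1.51% and 0.948%. Median depths before thinning were 1203, 2338 and 2209 UMIs in these astrocytes and 2208, 5585.5 and 5598 in excitatory neurons. Thinning left out 52, 8 and 13 shallower PHD1+/+ astrocytes and 440, 170 and 65 microglia. Of the PHD1+/+ endothelial nuclei it left out 148 of 187, 13 of 29 and 5 of 23. The endothelial shares without thinning were 52.4%, 72.4% and 87.0% of PHD1+/+ nuclei. In astrocytes the share without thinning was 22%, 27.4% and 31.3% in PHD1+/+ and 18.02%, 22.5% and 25.9% in PHD1-/-.

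Between the genotypes no gene of the list was called in any of the 8 comparisons of 3 PHD1+/+ with 3 PHD1-/- libraries, with each gene adjusted over all genes tested in that class. The edgeR count of called genes was 0 in each, so percent called over all genes was 0.0%, and DESeq2 called 0 except in astrocytes. At an unadjusted p under 0.05 edgeR and DESeq2 each had 1 gene of the list in astrocytes (Tor3a) and 1 in OPC (Herc6), and 0 in all nuclei, microglia, oligodendrocytes, endothelial cells and both neuron classes. All log2 differences below are PHD1-/- minus PHD1+/+.

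**Figure D4:**
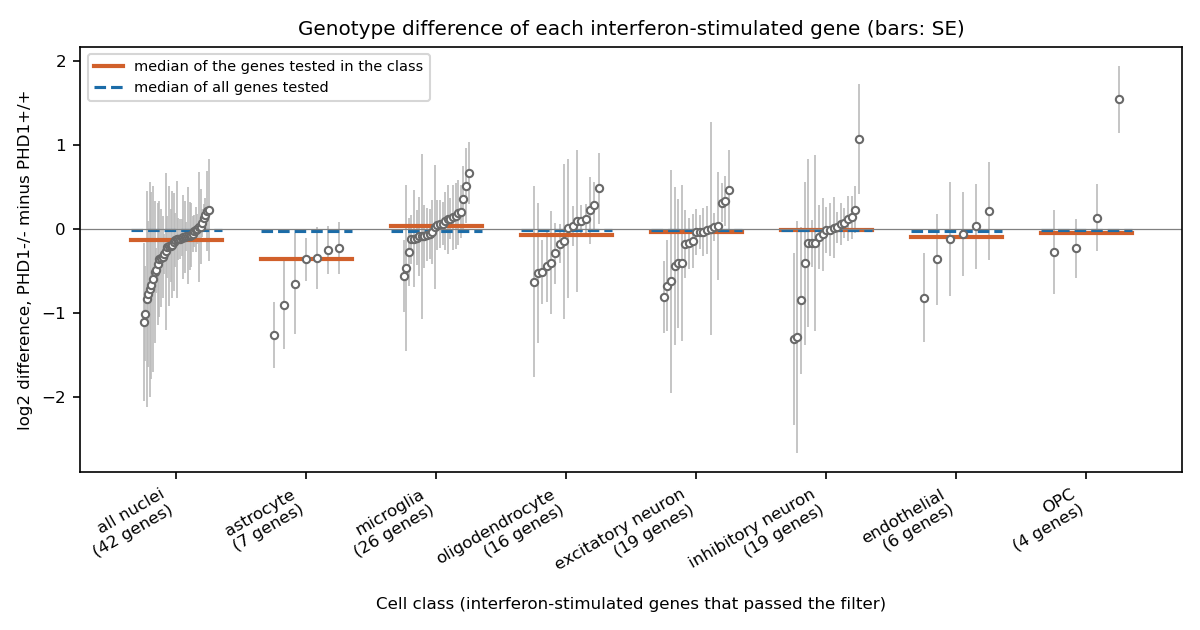
Log2 difference (PHD1-/- minus PHD1+/+) of every interferon-stimulated gene that passed the count filter in a class, with bars of 1 SE, the median of these genes and the median of all genes tested. The 7 genes of the astrocyte class all lie below 0 with a median of -0.36, the 26 of microglia lie on both sides with a median of 0.04, and no point passed the adjusted threshold.

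Over all nuclei, 42 of the 43 genes passed the filter, 34 of them with a negative difference, at a median of -0.13 against -0.01 for 19342 genes, 52.0% of which were negative. The level over all nuclei also follows the mix of classes in a library. Adar had 68.5, 114 and 114 CPM in PHD1+/+ and 74.8, 109.7 and 110.5 in PHD1-/- (log2 difference -0.00, SE 0.27). Ifi27 (-0.26, SE 0.94) was high in replicate 1 of both groups, and Znfx1 stood at -0.08 (SE 0.17). The smallest p values in either direction belonged to Ifi207, with 2.49, 3.38 and 2.85 CPM in PHD1+/+ and 1.92, 2.40 and 1.87 in PHD1-/- (-0.49, SE 0.26), and to Rsad2, with 4.45, 1.51 and 1.99 against 2.27, 0.860 and 0.937 (-1.004, SE 0.57). On the other side stood Parp14 (0.16, SE 0.20) and Rnf213 (0.13, SE 0.16). Ifi207 was the only gene of the list whose groups did not overlap, with every PHD1-/- library lower, against 2.03% of all genes tested, and 0 were higher in that way, against 1.98%. The lean of the list rested on single libraries: without PHD1+/+ replicate 1 it turned to 13 negative of 43 tested with a median of 0.18, and without PHD1-/- replicate 2 it was 22 of 42 (median -0.02). In replicates 2 and 3 alone 24 of 42 were negative (median -0.04).

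In microglia 26 genes passed the filter, 12 with a negative difference and a median of 0.04 (all genes -0.02, 53.0% of them negative). Trim30a had 136, 168 and 216 CPM in PHD1+/+ and 165, 211 and 195 in PHD1-/- (0.13, SE 0.24), and the groups overlapped. Rnf213 had 59.9, 113 and 145 against 117, 113 and 140 CPM (0.21, SE 0.32), and Parp14 had 53.9, 98.2 and 103 against 44.3, 113 and 128 (0.16, SE 0.39). The smallest p values belonged to Slfn2, a Schlafen protein that guards transfer RNA (0.67, SE 0.37), and Oasl2 (0.52, SE 0.45) among positive differences, and to Bst2 (-0.56, SE 0.43) and Ifi35 (-0.27, SE 0.40) among negative ones. Of these, Bst2 had 88.6, 66.5 and 25.9 CPM in PHD1-/- against 84.3 to 88.0 in PHD1+/+, so 1 of the 3 PHD1-/- libraries lay above that range and 2 below. No gene had groups that did not overlap, against 2.03% (lower) and 2.28% (higher) of all genes. The summed level was 1720 ± 286 CPM in PHD1+/+ and 1797 ± 32.8 in PHD1-/- (SD, n = 3).

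In endothelial cells 6 genes passed the filter, and PHD1-/- replicate 2 held only 12 nuclei. Ifitm3 (-0.12, SE 0.68), Sp100 (0.03, SE 0.50) and Ifi27 (-0.36, SE 0.54) overlapped between the groups. Bst2 did not, with 161, 168 and 142 CPM in PHD1+/+ and 90.6, 52.8 and 101 in PHD1-/- (-0.81, SE 0.53), against 1.42% of all genes in that direction. Among the 31 genes of the list with at least 20 endothelial UMIs, 4 had every PHD1-/- library lower (Bst2, Gbp7, Trim30a and Sp110) and 2 every PHD1-/- library higher (Adar and Ifit1). The shares over all genes with that many UMIs were 3.18% and 2.67%. The genes with groups apart had few UMIs in PHD1-/- replicate 2. These were 1 each for Bst2 and Gbp7, 2 each for Trim30a and Ifit1, 0 for Sp110 and 5 for Adar. The count of genes apart is therefore a description and not a test. Summed over the list the groups overlapped, at 3342 ± 302 and 3314 ± 372 CPM (SD, n = 3).

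Oligodendrocytes and OPC had few testable genes. In oligodendrocytes 16 passed and 8 were negative (median -0.07, all genes -0.01 with 52.4% negative), with Ifi27 at 0.01 (SE 0.83), Znfx1 at -0.29 (SE 0.36) and Xaf1 at 0.12 (SE 0.18), and none had groups apart, against 3.41% of all genes lower and 2.32% higher. In OPC 4 passed, 2 of them negative (52.0% of all genes): Ifi27 (-0.27, SE 0.50), Adar (0.14, SE 0.40), Rnf213 (-0.23, SE 0.35) and Herc6. Herc6 had 12.8, 10.9 and 9.03 CPM in PHD1+/+ OPC and 28.2, 36.7 and 32.9 in PHD1-/- (1.55, SE 0.39, edgeR unadjusted p = 0.00303, adjusted p = 0.999). Its PHD1-/- libraries were all higher, which 3.61% of the genes tested in OPC also showed (2.22% were lower in this way), and which is the opposite order to the one Herc6 had in astrocytes. With the replicate block edgeR called 1 gene in OPC and 0 of the list.

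In excitatory neurons 19 genes passed, 13 negative (median -0.04, all genes -0.01 with 53.1% negative). Adar had 79.3, 136 and 131 CPM in PHD1+/+ and 83.1, 131 and 128 in PHD1-/- (-0.01, SE 0.28), Rnf213 stood at -0.03 (SE 0.20) and Znfx1 at 0.03 (SE 0.17). Gbp7, at 3.12, 1.56 and 1.30 CPM against 1.03, 0.987 and 1.11 (-0.80, SE 0.43), had groups that did not overlap, as did 2.15% of all genes in that direction. Inhibitory neuron markers in these sums, 4 of 4 detected, also did not overlap (42.2 to 55.5 CPM in PHD1+/+ and 30.2 to 34.0 in PHD1-/-), and their part was not tested. In inhibitory neurons 19 passed, 11 negative (median -0.01, with 51.9% of all genes negative), with Adar at 0.06 (SE 0.25), Rnf213 at 0.08 (SE 0.17) and Znfx1 at 0.02 (SE 0.18), and 0 had groups apart, against 2.24% lower and 2.14% higher. With the replicate block edgeR called 18 genes in excitatory and 78 in inhibitory neurons, and 0 of the list in either.

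In astrocytes the differences leaned to 1 side, with 0 calls in the filtered test. The 43 genes summed to 1075, 633 and 860 CPM in PHD1+/+ and to 708, 390 and 537 in PHD1-/-, so the groups overlapped. Each PHD1-/- library was lower than the PHD1+/+ library of the same number, but the numbers are not known to mark pairs. Among the roles, the RNA binders had 399, 194 and 343 CPM against 161, 122 and 188, and no PHD1-/- library reached the lowest PHD1+/+ one. The GTPases and membrane proteins had 112, 96.9 and 93.9 against 84.7, 40.8 and 45.7 CPM, also apart. The ubiquitin group (266 ± 38.1 against 220 ± 50.8, SD, n = 3), the nuclear proteins (13.5 ± 17.8 against 4.77 ± 1.63) and the others (164 ± 97.5 against 106 ± 69.7) overlapped.

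Only 7 genes of the list passed the filter in astrocytes, all with a negative difference (median -0.36, against -0.02 for 6817 genes, of which 52.2% were negative). Of the 36 that failed it, 26 had a lower PHD1-/- mean, 9 a higher one and 1 was at 0. Tor3a had 37.3, 38.2 and 38.2 CPM in PHD1+/+ and 19.1, 8.73 and 17.8 in PHD1-/- (-1.26, SE 0.39, edgeR unadjusted p = 0.0101, adjusted p = 0.999). Herc6 had 82.1, 84.6 and 82.2 against 71.0, 58.2 and 66.1 CPM (-0.36, SE 0.26). These were the 2 of the 7 whose groups did not overlap, against 2.49% of all genes lower and 2.42% higher. Znfx1 (-0.90, SE 0.53), Rnf213 (-0.34, SE 0.37) and Adar (-0.24, SE 0.29) overlapped. DESeq2 called 1 gene here, the chemokine Cxcl10, which is not on the list, and edgeR with the replicate block also called 1.

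Among the 26 genes of the list with at least 20 astrocyte UMIs, 8 had every PHD1-/- library below every PHD1+/+ library and 0 the reverse, while 3.11% of all genes with that many UMIs were lower and 2.82% higher in this way. These were Tor3a, Herc6, Bst2, Oasl2, Usp18, Ifit1, Ifit2 and Rsad2. The list was chosen with earlier results of these data known, so the count is a description and not a test. The cut on UMIs pools both groups, and a gene can pass it mainly through the group where it is high. Rsad2 did so, with 23, 12 and 22 UMIs in PHD1+/+ against 2, 0 and 6 in PHD1-/-. Bst2 had 22.4, 31.4 and 32.3 CPM in PHD1+/+ and 19.1, 0 and 6.78 in PHD1-/-. Oasl2 had 44.8, 20.5 and 20.5 against 16.4, 0 and 11.01. Usp18, the protease that strips ISG15 from its targets and restrains the interferon receptor, had 22.4, 6.82 and 8.81 against 2.73, 0 and 5.93. In these 3 genes the lowest value was that of PHD1-/- replicate 2, which had 129 astrocyte nuclei, the fewest of the 6 libraries. Its 343526 astrocyte UMIs were nevertheless more than those of PHD1+/+ replicate 1 (267896) and PHD1+/+ replicate 3 (340712). Ifit1, which binds viral RNA lacking the host cap mark, had 29.9, 5.46 and 17.6 against 2.73, 0 and 5.08 CPM, and its relative Ifit2 had 44.8, 19.1 and 17.6 against 8.20, 2.91 and 9.32. In microglia 0 of 34 genes with that many UMIs were apart in either direction, against 2.54% of all genes lower and 2.21% higher.

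**Figure D5:**
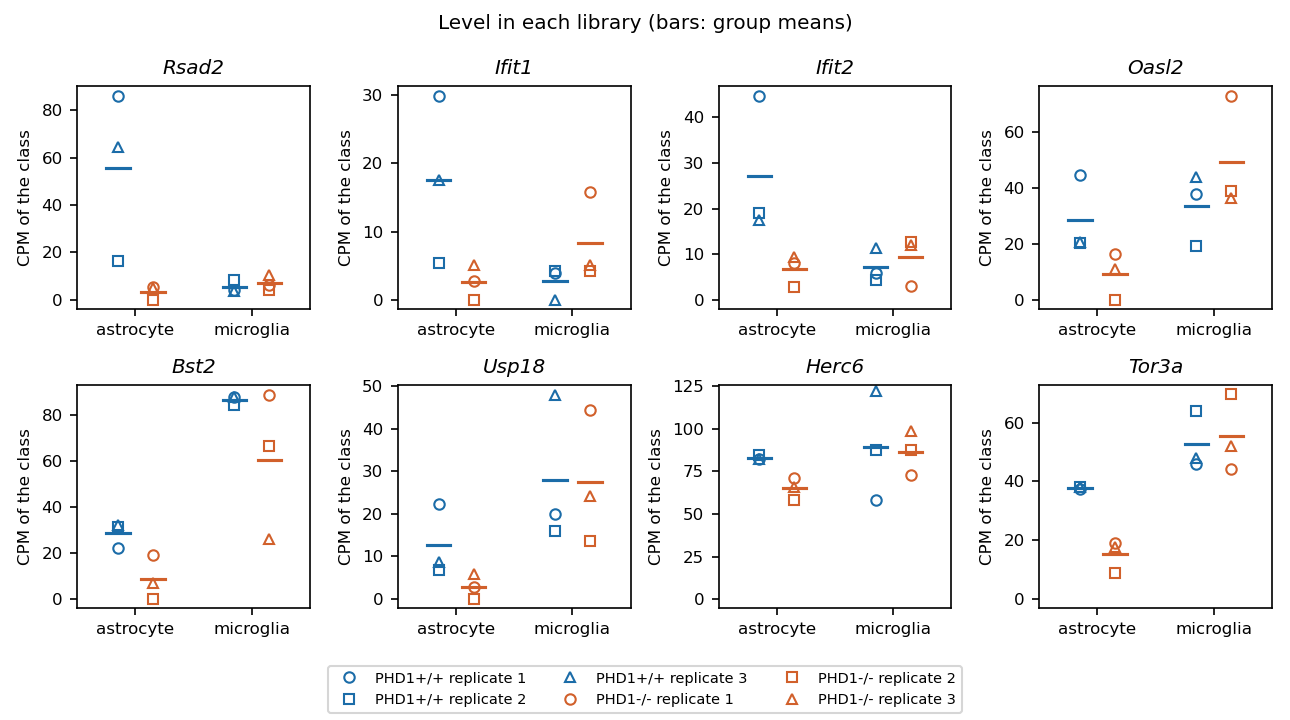
Level (CPM of the class) in each library of the 8 genes whose groups did not overlap in astrocytes, in astrocytes and in microglia. Points are libraries and bars are group means. In astrocytes every PHD1-/- point lies below every PHD1+/+ point by construction of the choice, and in microglia the points of the groups overlap for each of the 8.

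Rsad2 was called in astrocytes by edgeR once the filter on low counts was dropped. Its astrocyte level was 85.9, 16.4 and 64.6 CPM in PHD1+/+ and 5.46, 0 and 5.08 in PHD1-/-, from 23, 12 and 22 UMIs against 2, 0 and 6. In microglia it was 4.00, 8.54 and 3.83 against 6.33, 4.22 and 10.4 CPM, with overlap. It failed the filter on low counts. When every gene with at least 1 astrocyte UMI was tested (20085 genes, 42 of the list, 31 of these negative with a median of -0.68), edgeR called 3 genes, 0.0149% of all, and Rsad2 was the 1 of the list among them (-3.58, SE 0.58, adjusted p = 9.3e-06). The range of its edgeR adjusted p over the other choices run with that test was 5.86e-10 to 0.006, and DESeq2 gave -3.79 with an adjusted p of 0.148, which is no call. An exact two-sided permutation test of its level gave p = 0.1, the smallest that 3 libraries against 3 allow. Isg15 (-2.73, SE 0.94), Ifit1 (-2.08, SE 0.79), Bst2 (-1.78, SE 0.57) and Ifit2 (-1.72, SE 0.60) had adjusted p = 0.9998 in the same edgeR test. In replicates 2 and 3 alone, with no filter, edgeR called 11 genes, of which Rsad2 and Bst2 (-2.56, SE 0.57, adjusted p = 0.0146) were on the list, and the adjusted p of Bst2 lay between 0.119 and 1.0 under the other choices run with that test. Cxcl10, with 29.9, 46.4 and 197 against 8.20, 0 and 2.54 CPM, was a further one of the 3 called (-4.67, SE 0.55, edgeR adjusted p = 2.4e-13).

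These differences rested on few nuclei. A single nucleus held 21 of the 23, 8 of the 12 and 16 of the 22 Rsad2 UMIs of PHD1+/+ replicates 1, 2 and 3. Rsad2 was found in 3 of 200, 4 of 292 and 3 of 147 PHD1+/+ astrocytes and in 2 of 283, 0 of 129 and 4 of 444 PHD1-/- astrocytes. Without the richest nucleus of each library its level was 7.58, 5.48 and 17.9 against 2.74, 0 and 2.55 CPM, still apart, with every PHD1+/+ value lower than before. In Cxcl10 also 1 nucleus held 7 of 8, 28 of 34 and 62 of 67 PHD1+/+ UMIs, and the levels without the richest nuclei were 3.79, 8.22 and 14.9 against 2.74, 0 and 0.850 CPM.

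Astrocyte nuclei that carried at least 8 different genes of the list, a class of nuclei set after the values were seen, numbered 3 of 200, 3 of 292 and 3 of 147 in PHD1+/+ and 0 of 283, 0 of 129 and 5 of 444 in PHD1-/-. As shares these were 1.5%, 1.03% and 2.04% in PHD1+/+ (exact 95% binomial intervals 0.310 to 4.32, 0.212 to 2.97 and 0.423 to 5.85). The PHD1-/- shares were 0% (exact upper limit 1.30), 0% (2.82) and 1.13% (0.367 to 2.61), and the intervals overlap. By the limit of 3 nuclei that a count of 0 allows, the first 2 shares could be up to 1.06% and 2.33%. These 14 nuclei held 112 of 288, 124 of 464 and 137 of 293 UMIs of the list in PHD1+/+ and 98 of 634 in PHD1-/- replicate 3. Each carried 7 to 72 UMIs of astrocyte markers, 0 to 2 of microglia markers and 0 of endothelial and border macrophage markers. Without them the list summed to 673, 470 and 470 CPM in PHD1+/+ and 708, 390 and 461 in PHD1-/-, with means of 538 ± 117 and 519 ± 167 (SD, n = 3). Rsad2 was then 3.82, 2.76 and 3.01 against 5.46, 0 and 2.58 CPM, Tor3a 15.3, 27.6 and 21.1 against 19.1, 8.73 and 17.2, and Herc6 26.8, 58.1 and 42.2 against 71.0, 58.2 and 55.9. The groups overlapped for all 8 genes named above once these nuclei were set aside, a description with no test, since the nuclei were chosen by the genes themselves. In microglia the share of such nuclei was 0.705%, 2.40% and 4.39% in PHD1+/+ and 0.870%, 4.19% and 4.92% in PHD1-/-. The clusters without a clear name, some of them led by Gfap, also held such nuclei. They numbered 72 of 1509, 2 of 207 and 3 of 180 in PHD1+/+ and 17 of 531, 4 of 91 and 6 of 240 in PHD1-/-. How many of these were astrocytes was not tested, so the counts of the astrocyte class may be incomplete.

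Thinned to 1000 UMIs, 11.7% ± 4.53 of PHD1+/+ and 8.40% ± 1.73 of PHD1-/- astrocytes carried at least 2 genes of the list (SD, n = 3), and 16.9% in PHD1+/+ replicate 1 was the highest library. Microglia gave 39.7% ± 6.40 and 40.6% ± 4.79. In both classes the groups overlapped.

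Transcripts of other cell types were present in the astrocyte sums of both groups. Of the 16 marker lists of other cell types, T and NK lymphocyte markers alone had groups that did not overlap, at 3.73, 10.9 and 11.7 CPM in PHD1+/+ and 0, 2.91 and 1.69 in PHD1-/-, the same order as the 8 genes above. Of those markers 4 of 6 were detected, and the defining markers Cd3e and Klrk1 were at 0. B lymphocyte markers (4 of 4) ranged from 0 to 2.73 CPM in PHD1+/+ and from 1.69 to 5.82 in PHD1-/-. Microglia markers (8 of 8 detected) ranged from 129 to 302 CPM in PHD1+/+ and from 121 to 248.6 in PHD1-/-, and endothelial markers (7 of 7) from 19.1 to 67.2 and from 20.3 to 38.2. Border macrophage markers (5 of 6, with F13a1 at 0) ranged from 7.47 to 8.81 and from 8.20 to 14.6. Oligodendrocyte markers ranged from 816 to 2841 and from 822 to 3030 CPM, with replicate 1 highest in both groups, neuron markers from 602 to 1844 and from 396 to 1311, and mitochondrial transcripts from 1834 to 4595 and from 1883 to 2806. Their part in the astrocyte differences was not tested.

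Whether the genotype difference itself differed between classes was tested with an interaction term. Against microglia 26 genes of the list were tested and 19 had a more negative difference in astrocytes (median -0.51, all genes 0.00), and against oligodendrocytes 28 were tested and 21 were more negative (median -0.45, all genes 0.02). edgeR called 0 genes in both (0.0% of all genes), with 3 and 2 of the list at an unadjusted p under 0.05, and DESeq2 also called 0, with 2 and 2. Against microglia the 3 were Oasl2 (-2.03, SE 0.66), Tor3a (-1.24, SE 0.45) and Parp14 (-1.38, SE 0.50). Against oligodendrocytes the 2 were Rsad2 (-3.53, SE 1.04) and Ifit2 (-2.33, SE 0.72), each with an edgeR adjusted p of 1.0. For no gene of the list did the test show a genotype difference particular to astrocytes.

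Of the other pathway genes 0 were called between the genotypes in any class by edgeR. In astrocytes 12 of 15 tested were negative (median -0.20), in all nuclei 25 of 32 (-0.08) and in microglia 11 of 26 (0.03). The receptor chain Ifnar2 stood at 0.38 (SE 0.32), Jak2 at 0.46 (SE 0.31) and Jak1 at -0.10 (SE 0.34) in astrocytes.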

How the data were processed

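Raw counts of unique transcripts per gene and nucleus were deposited by the authors; Cell Ranger 5.0.1 made them per the file headers, whereas version 5.0.2 stands in the submitters' processing notes, beside Scanpy 1.8.1 and the mm10 build. Nuclei were kept from 500 UMIs and 300 genes upward if mitochondrial UMIs were under 5%, and doublets that Scrublet marked were removed. Clustering (scanpy 1.11.5, 30 principal components, 15 neighbours) left out the interferon genes, and classes were named from markers. Sums of UMIs over each class of a library entered edgeR 4.0.16 (TMM, filterByExpr, quasi-likelihood, Benjamini-Hochberg at 0.05), and the script was tested on simulated data. Alternatives used DESeq2 1.42.0, RLE factors, no filter, a replicate block, replicates 2 and 3, nuclei of at least 1000 UMIs, and leaving out each library. The protocol's littermate pairs do not tie numbers to litters. Deviations of same-numbered libraries correlated at 0.83, 0.64 and 0.52 over all nuclei and at 0.64, 0.27 and 0.46 in astrocytes for replicates 1, 2 and 3. In each tested class but the endothelial one (0.63, -0.02 and -0.04) these correlations were above 0.1. Replicates 2 and 3 correlated with each other about as well (0.32 in astrocytes), so the agreement came mainly from replicate 1. The main genotype fits held no block for the replicate number, and the replicate block was an alternative only. The genes and lists were chosen with earlier results of these data known. Named were, per comparison, the 3 genes with most UMIs, each called gene and the smallest p values in each direction, and per role up to 3 with most UMIs. Rsad2, Slfn5, Parp14, Isg15, Usp18, Oasl2, the Ifit genes, Cxcl10 and others outside that rule were chosen after their values were seen.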

Additional observations from a re-analysis of the deposited data

How the results depend on the processing

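No gene of the list was called between genotypes when a single choice was changed, except for Rsad2 in astrocytes without a filter on low counts (1 gene of the list and 3 genes in all). Dropping the filter together with another choice, added after seeing the data, called Rsad2 in each edgeR fit, also Bst2 in replicates 2 and 3, and 0 of the list with DESeq2. Of all genes in astrocytes, DESeq2, the replicate block and replicates 2 and 3 alone called 1 each. The replicate block called 18 genes in excitatory neurons, 78 in inhibitory neurons and 1 in OPC, and changed no other call. Replicates 2 and 3 called 1 gene in excitatory neurons and 1 in the interaction with microglia, and no filter called 3 in OPC and 1 in each interaction. For the class differences, nuclei of at least 1000 UMIs left 13 genes higher in astrocytes, of 20 tested against 29. No filter gave excitatory neurons 27 called (7 higher, 20 lower) and 13798 genes in all, and microglia 2 lower, as did replicates 2 and 3. Shares of all genes called are not given for these class fits.

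Some small differences changed sign. In replicates 2 and 3 the astrocyte contrast gave Ifi204 -3.04 and Ifi207 -1.39, the excitatory contrast gave Eif2ak2 0.088, Sp100 0.35 and Trim30a -0.18, and the genotype difference was -0.11 for Adar and 0.057 for Ifi27 in OPC, -0.039 for Znfx1 in excitatory neurons and -0.031 for Rnf213 in microglia. In the excitatory contrast Eif2ak2 was 0.034 with DESeq2, 0.031 with RLE and 0.097 in PHD1+/+ alone, and Sp100 was 0.098 with DESeq2 and 0.0023 with RLE. With the block Adar over all nuclei was 0.0075, and with nuclei of at least 1000 UMIs Ifi27 in oligodendrocytes was -0.071. The cause was not tested. Without PHD1+/+ replicate 1 the median of the list also changed sign over all nuclei (0.18), in oligodendrocytes (0.30), excitatory neurons (0.033), inhibitory neurons (0.11) and microglia (-0.043), and in astrocytes it kept its sign under every alternative (-1.16 to -0.32).

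Leaving out each library in turn gave ranges that crossed 0. In the astrocyte contrast these were -3.09 to 1.39 for Ifi204, -1.61 to 0.96 for Ifi207 and -3.48 to 0.85 for Sp100, in the endothelial contrast -0.86 to 0.022 for Xaf1, and in the excitatory contrast -0.44 to 0.29 for Sp100 and -0.035 to 0.36 for Trim30a. Between genotypes they were, in OPC, -0.24 to 0.41 for Adar and -0.70 to 0.47 for Ifi27; over all nuclei, -0.21 to 0.17 for Adar and -1.48 to 1.15 for Ifi27; in endothelial cells, -1.40 to 0.10 for Ifi27, -1.16 to 0.78 for Ifitm3 and -0.21 to 0.34 for Sp100. In excitatory neurons they were -0.22 to 0.18 for Adar, -0.15 to 0.094 for Rnf213 and -0.018 to 0.10 for Znfx1, in inhibitory neurons -0.12 to 0.22 for Adar and -0.041 to 0.10 for Znfx1, in microglia -0.068 to 0.44 for Parp14 and -0.031 to 0.48 for Rnf213, and in oligodendrocytes -1.11 to 1.22 for Ifi27 and -0.53 to 0.0405 for Znfx1.

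The endothelial comparisons with nuclei of at least 1000 UMIs were not run because 1 library kept 9 nuclei. With 3 libraries per group, and few UMIs per gene in astrocyte and endothelial sums, small differences were not detectable.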
